A study of Mus musculus with 4 samples.

Results

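The cell cycle genes described here are 35 genes that dividing cells transcribe in a fixed order. They comprise 2 cyclins of the D type, 13 genes of the passage into and through S phase, and 20 genes of G2 and mitosis. A gene was represented by the probe set of highest mean signal over the 4 arrays among those that the platform annotation pairs with that gene alone. By this rule 34 of the 35 had a value, out of 18194 genes with such a probe set in all. Ccnb1 was not analysed here. The mean signal of 32 of the 34 passed the filter of 113.9, the median of all probe sets, and these 32 were tested. Tk1, a thymidine kinase of S phase, and Kif20a, a mitotic kinesin, lay under it and are given as signals only.

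The RNA came from Paneth cells, the granule-filled defence cells lining the bottom of the crypts, that were dissected with a laser from frozen small intestine of male NMRI mice aged 8 weeks. The germ-free mice were kept free of microbes throughout, and the conventionalized mice had been germ-free until they were given, 10 days before, intestinal microbes taken from a mouse raised conventionally. Each group was 1 pool of RNA from 3 mice, from which 2 aliquots of 10 ng were amplified separately, each for its own Affymetrix array. Duplicate arrays thus repeat 1 pool, and every standard error or p-value below measures amplification and array error only, not the spread between mice.

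A cell that commits to division first accumulates cyclin D, which with its kinases releases the E2F transcription factors. E2F then switches on the genes of S phase, among them the MCM helicase that opens the DNA, the clamp PCNA that holds the polymerase and the enzymes that make deoxynucleotides. Genes of G2 and mitosis follow, under complexes that read a short promoter element called CHR together with CCAAT boxes. In the small intestine division takes place in the stem cells between the Paneth cells and in the progenitors just above them, whereas Paneth cells are mature and do not divide.

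The promoters of the members are shown first because they describe the S phase and the mitotic genes by sequence, independently of the signals. RefSeq windows of 300 bases on GRCm38.p6, from 250 before to 50 after the start of the gene, were on hand for 27 of the 35 members. The others were Ccnd1, Ccnd2, Ccne2, Mcm4, Ccna2, Aurkb, Kif20a and Stmn1. Exact matches on either strand were sought to CCAAT (the CCAAT box), TTTGAA (CHR), and TTTCCCGC and TTTGGCGC (forms of the E2F element), none of which overlapped another in the sequences printed. Among 32851 promoters of this length, 37.4% held CCAAT, 17.9% held TTTGAA, 7.0% held both and 1.6% held either E2F form. Both CCAAT and TTTGAA stood in 13 of the 16 promoters of G2 and M phase members (81.2%), and in 1 of the 11 promoters of S phase members, that of Mcm2. An E2F form stood in 4 of the 11 S phase promoters, those of Mcm3, Mcm5, Mcm6 and Mcm7, and in 0 of the 16 mitotic ones. A match is only a run of letters and does not show binding, and the windows of Mcm7 disagree: of its 2, the one that RefSeq's table lists first was counted and holds an E2F form, and the other holds only CCAAT of the letters sought. Below are the 250 bases before the start of 2 mitotic genes, Cdk1 (chr10:69352913-69353162, minus strand) and Top2a (chr11:99024190-99024439, minus strand), and of 2 S phase genes, Mcm6 (chr1:128359706-128359955, minus strand) and Rrm2 (chr12:24708004-24708253, plus strand). All 4 are written 5′ to 3′ along the gene, with the matches in capitals.
Cdk1: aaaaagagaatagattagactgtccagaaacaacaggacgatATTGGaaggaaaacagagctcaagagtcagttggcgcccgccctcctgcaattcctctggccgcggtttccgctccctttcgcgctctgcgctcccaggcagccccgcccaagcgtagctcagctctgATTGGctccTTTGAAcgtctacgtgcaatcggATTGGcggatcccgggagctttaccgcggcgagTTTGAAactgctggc
Top2a: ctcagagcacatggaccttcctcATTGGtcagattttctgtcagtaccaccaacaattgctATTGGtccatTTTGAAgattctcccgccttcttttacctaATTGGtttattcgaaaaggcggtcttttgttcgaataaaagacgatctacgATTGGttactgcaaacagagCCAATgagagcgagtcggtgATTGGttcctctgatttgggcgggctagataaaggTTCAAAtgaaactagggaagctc
Mcm6: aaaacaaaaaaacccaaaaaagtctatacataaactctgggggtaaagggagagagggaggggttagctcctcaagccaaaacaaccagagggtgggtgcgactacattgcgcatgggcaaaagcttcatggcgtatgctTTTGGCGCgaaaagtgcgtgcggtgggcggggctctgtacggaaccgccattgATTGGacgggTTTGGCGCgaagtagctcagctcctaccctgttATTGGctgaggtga
Rrm2: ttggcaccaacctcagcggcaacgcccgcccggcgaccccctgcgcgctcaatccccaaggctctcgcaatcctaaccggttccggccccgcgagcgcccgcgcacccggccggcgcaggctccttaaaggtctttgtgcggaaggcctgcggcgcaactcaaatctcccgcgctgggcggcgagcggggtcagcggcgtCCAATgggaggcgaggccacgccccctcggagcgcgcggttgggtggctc
The Cdk1 window shows 3 CCAAT boxes, read as ATTGG on the opposite strand, and 2 CHR matches at -71 and -15 from the start. That of Mcm6 shows 2 E2F matches, at -110 and -47, and 2 CCAAT boxes. That of Rrm2 shows a single CCAAT box at -50.

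Facts of the whole data set bear on every value that follows. The log2 gap between duplicate arrays had a standard deviation over probe sets of 0.83 (germ-free) and 1.05 (conventionalized). Germ-free replicate 2 correlated with conventionalized replicate 1 (Pearson r = 0.890 across probe sets, which are not independent) more closely than with its own duplicate (0.869). The conventionalized duplicates correlated at 0.779, less than conventionalized replicate 1 did with either germ-free array (0.855 and 0.890). Conventionalized replicate 2 stood furthest from the rest, at 0.754 and 0.772 with the germ-free arrays. Paneth markers were high, as the label says: 7 of the 9 measured of 10 listed lay above the 90th percentile of all probe sets on every array, among them Lyz1, Mmp7 and Defa31. Absorptive enterocyte and goblet cell markers were also bright (9 of 10 and 7 of 7 above that percentile on every array).

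Genes of dividing cells gave strong signals in the capture at their brightest probe sets. Of the 34 measured members, 16 lay above the 90th percentile of their array on all 4 arrays and 30 above the 50th, where 12.1% and 46.0% of all 18194 genes did so. Mki67, the nuclear protein used to stain cycling cells, read between the 97.6th and the 98.1st percentile. Top2a, which untangles replicated chromosomes, read between the 96.8th and the 98.0th, and Mcm6, a subunit of the MCM helicase, between the 98.1st and the 98.8th. A percentile is a place on the array and not an amount, since probe sets differ in brightness per transcript. Further probe sets of a gene could also read far lower than its brightest. A second one of Mcm6 read 188.3 to 908.2 and of Rrm2 78.9 to 229.7, while Mki67 had 1 probe set. By class, 7 of the 13 S phase members, 7 of the 19 measured G2 and M phase members and 2 of the 2 D cyclins passed the 90th on all arrays. The dimmest members were Kif20a, which read from 12.7 to 46.4 (percentiles 8.7 to 34.8), and Tk1, from 37.4 to 177.6. Next came Tyms, from 89.0 to 174.9, and Ccne2, a cyclin of S phase entry, from 85.7 to 242.7. The mitotic kinases Bub1, Aurka, Aurkb and Plk1 had lowest percentiles of 51.3 to 58.1.

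**Figure D1:**
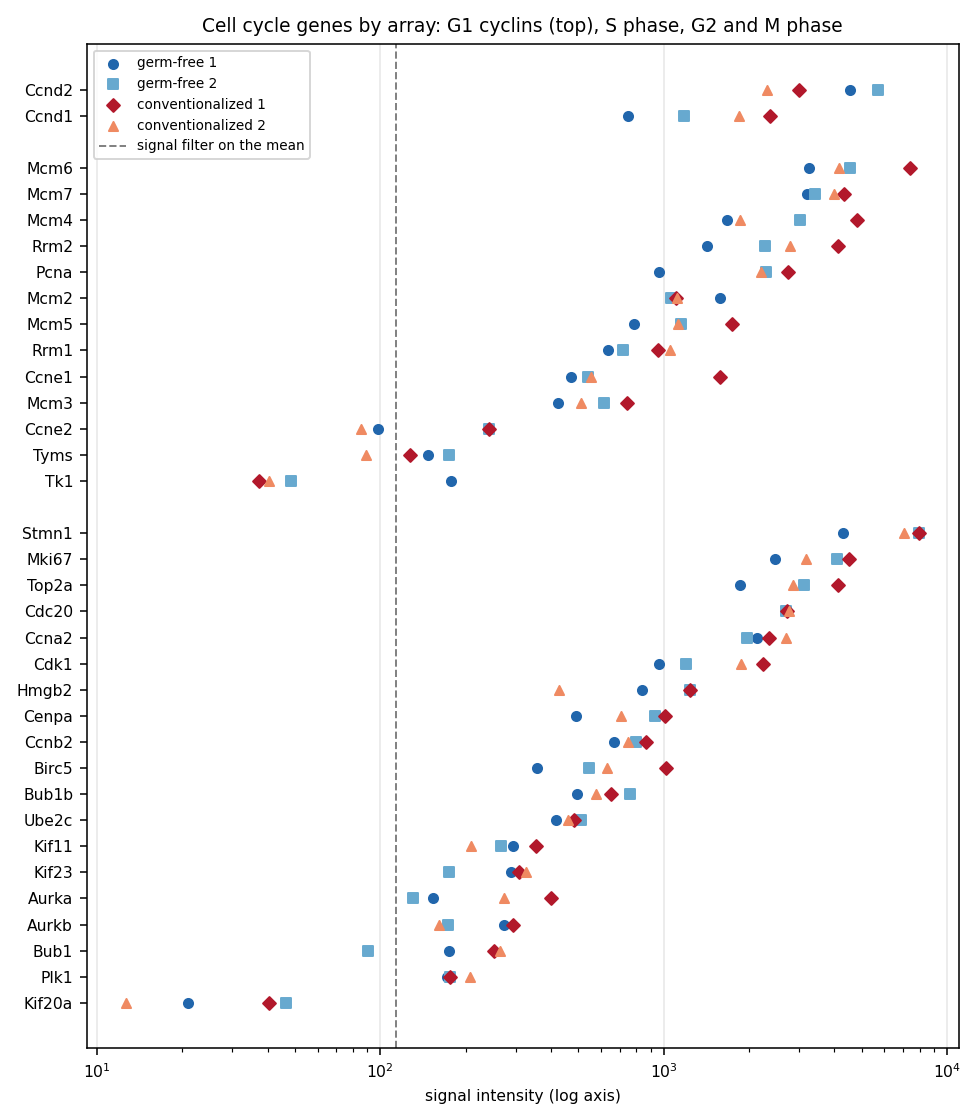
Signal intensity (log axis) of the 34 measured cell cycle genes, 1 point per array, ordered within each class by mean signal; the dashed line is the filter of 113.9 on the mean. Most genes lie well to the right of the line on every array, and germ-free and conventionalized points are mixed for most of them; points of Mki67 lie between 2460.5 and 4521.8.

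Signs of the cells that could carry these transcripts were read from marker lists. Of 10 crypt base stem cell markers, all were tested, and 5 had a difference above 0 and 5 below. With 0.333% of all probe sets called, none of the 10 was. Their summed signal, most of it from Olfm4 and Slc12a2, overlapped between the groups: 13507 and 19917 on germ-free arrays against 25964 and 13804 on conventionalized ones. Gene by gene, both conventionalized arrays lay above both germ-free arrays for 2 of the 10 and below for 4. The shares over all probe sets tested were 15.8% and 15.3%. Olfm4, a stem cell marker, read 6522.3, 12079.7, 16246.1 and 7059.7 (germ-free 1 and 2, then conventionalized 1 and 2, the order used throughout), while Lgr5, the R-spondin receptor that defines these cells, read 227.4, 205.2, 106.4 and 102.6. Immune cell markers differed among themselves. Igha, the heavy chain of IgA made by plasma cells, rose from 994.2 and 1644.2 to 6273.3 and 7987.8 (2.44 ± 0.44, limma adjusted p = 5.55e-05). Of the 8 B and plasma cell markers 4 were tested and 3 lay above 0. The 6 with a probe set summed to 2311, 2498, 7834 and 9622, most of it Igha on the conventionalized arrays. Of the 8 T and innate lymphoid markers 5 were tested and 4 lay above 0, with none called, where 0.333% of all probe sets were. The 7 with a probe set summed to 1216, 764, 1463 and 2013. Receptor subunits were dimmer than Igha: Cd3e and Cd3g, of T cells, read at most 42.1 and 173.0. Cd79a and Cd79b, of B cells, read at most 158.6 and 228.4. The other measured T and innate lymphoid markers had highest signals from 224.3 for Cd4 to 765.8 for Gzma. The share of the cell cycle signal that came from stem cells, progenitors, immune or other cells was not tested, and in pooled captures fewer dividing cells and less transcript per dividing cell cannot be told apart.

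The comparison of conventionalized with germ-free mice asked how colonization altered the cells' transcripts. No member changed past the threshold. Of 32 members tested, 0 were called higher and 0 lower by limma at an adjusted p under 0.05 over 22493 probe sets, where 0.333% of all probe sets were called (0.120% higher, 0.213% lower). At an unadjusted p under 0.05 there were 5 of 32, namely Ccnd1, Ccnd2, Ccne1, Rrm2 and Cdk1, where 5.13% of all probe sets lay; without the variance trend, limma gave 0 of 32. Differences leaned upward. The median log2 difference of the 32 was 0.31, beside 0.00 over all probe sets tested and -0.01 over the brightest 25%, and 24 of 32 lay above 0, where 50.2% of all and 49.3% of the brightest 25% did. Both conventionalized arrays lay above both germ-free arrays for 12 of 32 (15.8% of all probe sets and 16.4% of the brightest 25%) and below for 2, Ccnd2 and Tyms (15.3% and 17.2%). The gap between the groups exceeded both duplicate gaps for 11 of 32 (18.6% of all). With 2 arrays against 2, an exact permutation test cannot go below p = 0.333.

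**Figure D2:**
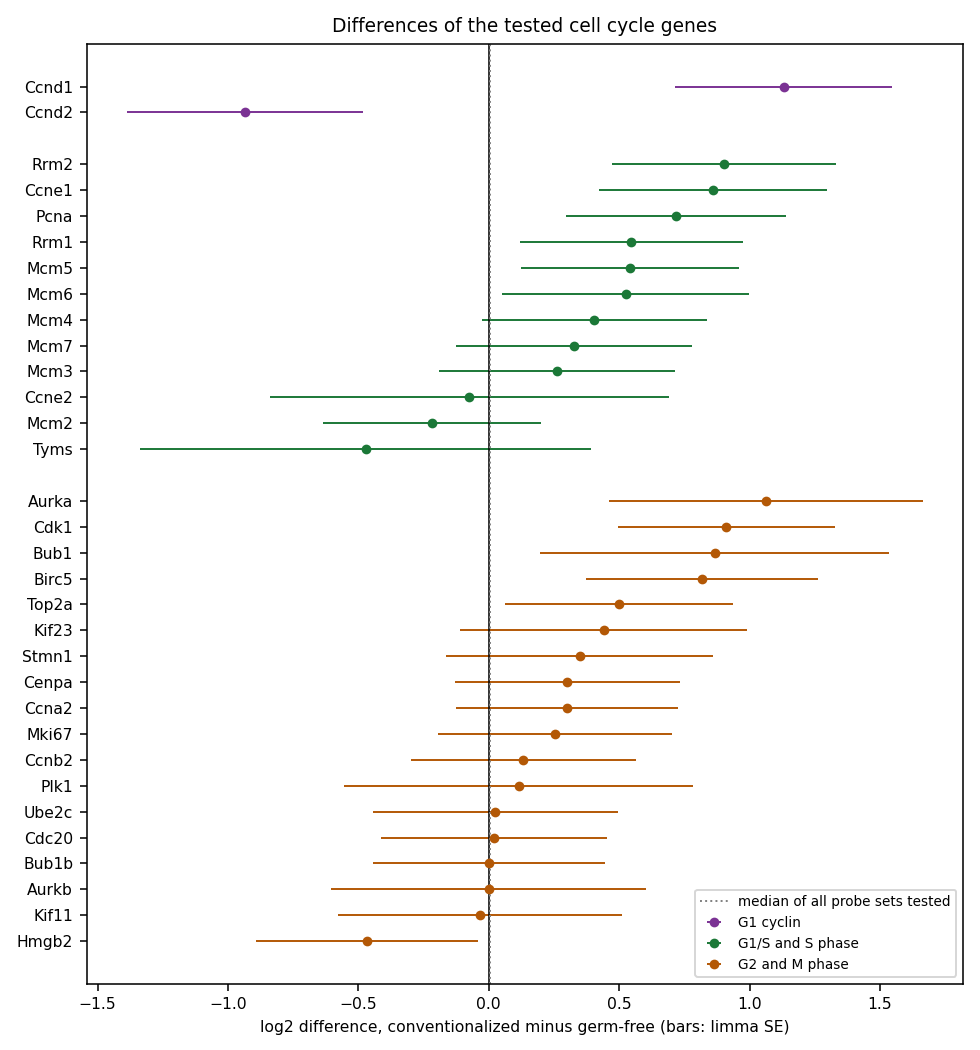
Log2 difference, conventionalized minus germ-free, of the 32 tested cell cycle genes by class, with bars for the limma standard error (2 arrays per group); the dotted line is the median of all probe sets tested. Ccnd1 at 1.13 and Ccnd2 at -0.94 lie on opposite sides of 0, and S phase genes run from 0.90 for Rrm2 to -0.47 for Tyms.

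The D cyclins, which start the cycle, differed in opposite directions. Ccnd1 read 744.9 and 1177.1 on the germ-free and 2379.5 and 1838.3 on the conventionalized arrays. Both conventionalized arrays were higher than both germ-free ones, by 1.13 ± 0.42 in log2 (limma adjusted p = 0.448), which is 2.19-fold. In all values here, ± is limma's SE for 2 arrays per group. That SE was set by probe sets of like signal and not by the gene's own duplicates. Its 3 probe sets were all above 0, from 0.42 to 1.13, with the groups apart in 2 of the 3. Ccnd2 read 4541.0 and 5688.7 on the germ-free and 3012.6 and 2316.8 on the conventionalized arrays, so here both conventionalized arrays were lower. Its log2 difference was -0.94 ± 0.45 (limma adjusted p = 0.925). All 6 of its tested probe sets were below 0, from -1.25 to -0.73, with the groups apart in 5 of the 6. Probe sets of a gene read the same labelled RNA and are not replicates. Leaving out each array in turn kept Ccnd1 between 0.81 and 1.45 and Ccnd2 between -1.12 and -0.75, and both kept their sign with quantile normalization and median centring. Neither was called in any of these fits.

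**Figure D3:**
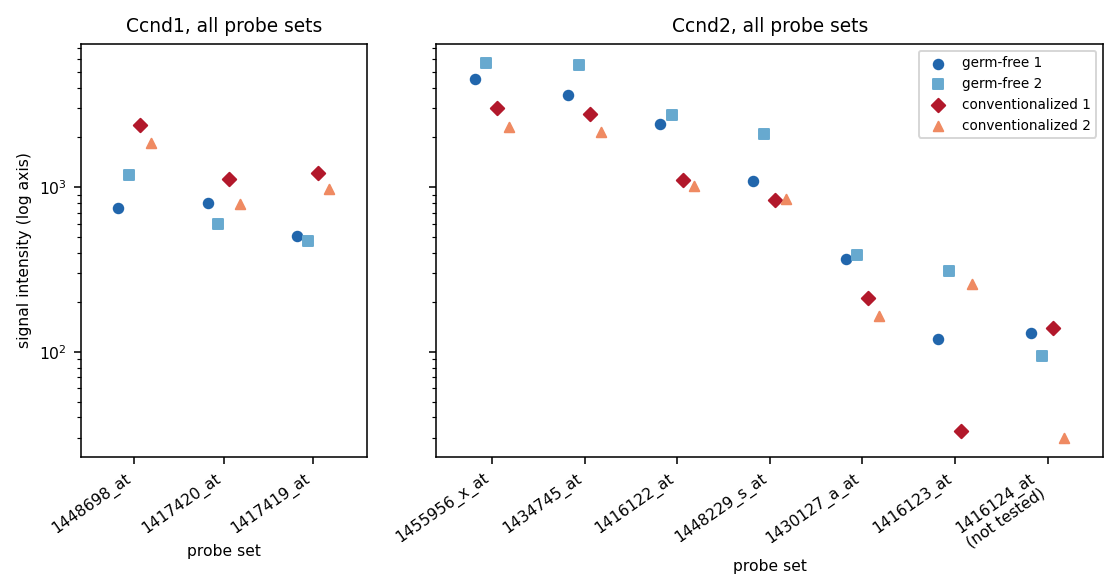
Signal intensity (log axis) of every probe set of Ccnd1 (3) and Ccnd2 (7, of which 1 was too dim to be tested), 1 point per array. Conventionalized points lie above the germ-free ones in 2 of 3 probe sets of Ccnd1 and below them in 5 of the 6 tested probe sets of Ccnd2.

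Of the 13 genes of S phase and its entry, 12 were tested, 9 lay above 0 and 3 below, and the median log2 difference was 0.46. Rrm2, the regulated subunit of ribonucleotide reductase, read 1425.0, 2274.1, 4115.4 and 2796.9. The conventionalized arrays were the higher pair, by a log2 of 0.90 ± 0.43 (limma adjusted p = 0.908), and a second probe set gave 0.57. Rrm1, the large subunit of the same enzyme, differed by 0.55 ± 0.43, with its groups also apart. Pcna read 958.4, 2290.1, 2755.2 and 2201.0: germ-free replicate 1 stood low, the 3 other arrays lay together, and the groups overlapped (0.72 ± 0.42, limma adjusted p = 0.999; 0.10 without germ-free replicate 1).

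Of the 6 subunits of the MCM helicase, 5 lay above 0, and each of these was lowest on germ-free replicate 1 and highest on conventionalized replicate 1. Mcm5 read 784.1, 1153.5, 1741.3 and 1123.5, which differs by 0.54 ± 0.42 in log2. Mcm2 read 1581.5, 1062.8, 1107.9 and 1113.5, with -0.22 ± 0.42. Mcm2 was the subunit below 0, with its highest signal on germ-free replicate 1, and the difference between subunits was not tested. The second tested probe set had the opposite sign in both genes, at -0.11 for Mcm5 and 0.18 for Mcm2. Mcm6 differed by 0.52, Mcm4 by 0.40, Mcm7 by 0.33 and Mcm3 by 0.26, with standard errors of 0.43 to 0.47. Of these 4 only Mcm7 had its groups apart at the brightest probe set. All 3 tested probe sets of Mcm3, Mcm6 and Mcm7 and both of Mcm4 were above 0. The groups were apart upward in 2 of the 3 for each of Mcm3, Mcm6 and Mcm7, and in 1 of the 2 for Mcm4.

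Ccne1, the cyclin of the G1/S transition, shows how far 1 array can carry a difference. It read 471.7, 539.2, 1582.6 and 555.5: conventionalized replicate 1 stood far above the 3 others, which lay close together. The log2 difference of 0.86 ± 0.44 was 0.13 without that array, and the second probe set of Ccne1 gave 0.06. Ccne2, its paralogue, differed by -0.07 ± 0.76. Tyms, which makes thymidylate, read 147.0, 174.9, 127.0 and 89.0, with the groups apart by little and a log2 difference of -0.47 ± 0.86. Tk1 read 177.6 on germ-free replicate 1 and 37.4 to 48.3 on the 3 others. The signals of Ccne1, Tyms and Tk1, and of members named below beyond Mki67, Top2a, Cdk1 and Aurka, were chosen for printing after their values were seen. So were those of the second probe sets of Mcm6 and Rrm2.

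Of the 20 genes of G2 and mitosis, 18 were tested, 14 lay above 0 and 4 below, and the median was 0.28. Cdk1, the kinase that drives entry into mitosis, read 960.5, 1200.7, 2240.8 and 1869.1. The conventionalized pair was higher than both germ-free arrays, by a log2 of 0.91 ± 0.42 (limma adjusted p = 0.852), and with any 1 array left out the value stayed between 0.75 and 1.07. Aurka, the spindle pole kinase, read 153.5, 130.3, 400.3 and 272.4, with the groups apart and the largest difference of its class, 1.06 ± 0.60. Its kinase relative Aurkb read 273.1, 173.8, 293.2 and 161.0: replicate 1 was high in both groups, and the difference of 0.00 ± 0.60 was under 0.001 in size.

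The general proliferation markers had smaller differences than Cdk1; the gap between genes was not tested. Mki67 read 2460.5, 4085.0, 4521.8 and 3175.2, with overlapping groups and a difference of 0.25 ± 0.45. Top2a read 1860.6, 3126.3, 4109.1 and 2849.0, likewise overlapping, with 0.50 ± 0.44. In both genes germ-free replicate 1 was lowest and conventionalized replicate 1 highest. Without germ-free replicate 1 the difference of Mki67 was -0.11, and without germ-free replicate 2 it was 0.62.

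The other members of G2 and mitosis ran from -0.47 for Hmgb2 to 0.87 for Bub1. Cdc20, the activator of the anaphase-promoting complex, read 2726.1, 2692.3, 2720.6 and 2776.2 at its brightest probe set, close together on every array, with a log2 difference of 0.02 ± 0.43. Its second tested probe set read 393.5, 580.3, 586.4 and 657.9, with both conventionalized arrays higher and a difference of 0.36. Ube2c, the ubiquitin-conjugating enzyme of that complex, differed by 0.03 and Bub1b, a checkpoint kinase, by 0.00. Bub1, its relative, differed by 0.87 ± 0.67 and Birc5, a subunit of the chromosomal passenger complex with Aurkb, by 0.82 ± 0.45, both with the groups apart. Plk1, a mitotic kinase, differed by 0.11, Ccnb2 and Ccna2, cyclins of mitosis and of S phase to mitosis, by 0.13 and 0.30, and Cenpa, the centromeric histone, by 0.30. Of the kinesins, Kif23 differed by 0.44 and Kif11 by -0.03. Stmn1, a microtubule regulator, differed by 0.35 and Hmgb2, a chromatin protein, by -0.47 ± 0.43, with 426.9 on conventionalized replicate 2 against 838.4 to 1241.4 on the 3 others.

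The upward lean rested mostly on a pair of arrays. Germ-free replicate 1 was the lowest of the 4 arrays for 20 of 32 members, where it was lowest for 20.7% of all probe sets tested and 29.0% of the brightest 25%. Conventionalized replicate 1 was the highest for 18 of 32, where the shares were 20.3% and 26.3%. On germ-free replicate 2 and conventionalized replicate 2 the median member stood at -0.02 and -0.03 from its own mean on the log2 scale, beside -0.37 on germ-free replicate 1 and 0.38 on conventionalized replicate 1. Leaving out germ-free replicate 1 lowered the members' median difference to 0.10, and leaving out conventionalized replicate 1 lowered it to 0.12. Over all probe sets tested the median was then 0.057 and 0.067. Leaving out the other array of each group gave 0.50 and 0.49 for the members, beside -0.108 and 0.007 over all probe sets. S phase members gave 0.19, 0.12, 0.70 and 0.69 in the same order, and G2 and M phase members 0.06, 0.13, 0.28 and 0.39. Paneth markers were also lowest on germ-free replicate 1 (7 of 9) and highest on conventionalized replicate 1 in 6 of 9. All 9 of them lay above 0 with a median of 1.82, and their summed signal was 71755, 154882, 283838 and 647975. Absorptive enterocyte markers lay below 0 in 8 of 10, with a median of -0.51 and sums of 92712 and 171257 against 109450 and 257470. Leaving out germ-free replicate 2 moved that median to 0.00, and leaving out conventionalized replicate 1 moved it to -0.08, while the Paneth median was 0.78 with quantile normalization. None of the measured markers of either list read 0, and the part of these cells in the cell cycle values was not tested. Fluidics station 1 served the germ-free and station 2 the conventionalized arrays, and the effect of the station cannot be told apart from that of colonization.

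**Figure D4:**
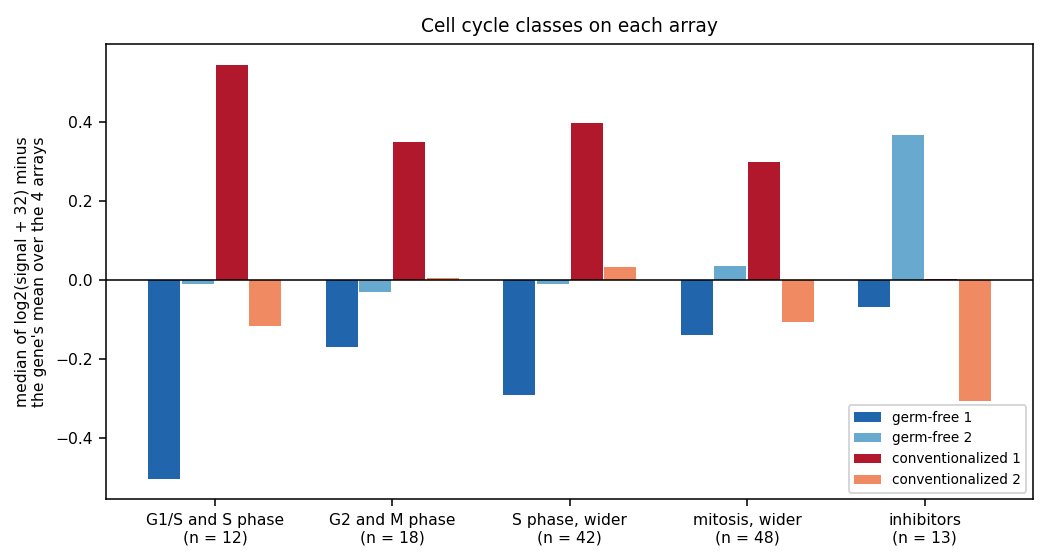
Median over the genes of a class of log2(signal + 32) minus the gene's own mean over the 4 arrays, for S phase and mitotic members, the wider S phase and mitosis lists and the inhibitors; bars start at 0 and n is the number of genes tested. In the first 4 classes germ-free replicate 1 is the lowest bar and conventionalized replicate 1 the highest, and the inhibitors do not share this order.

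A wider list of 138 further cell cycle genes, of which 124 were tested, held 1 called gene, with 10 at an unadjusted p under 0.05, where 0.333% and 5.13% of all probe sets lay. Tpx2, a spindle assembly factor that activates Aurka, was higher by a log2 of 2.06 ± 0.42 (limma adjusted p = 0.000787), but its groups overlapped. Its duplicates lay 2.11 (germ-free) and 4.44 (conventionalized) apart in log2. It read 1494.3, 322.0, 14299.7 and 627.4, so the call rested on conventionalized replicate 1, and without that array the difference was -0.16. A second probe set had the same shape (1996.9, 635.2, 8865.0 and 840.1), while another gave -0.26. Hmmr, another spindle protein, likewise read 11973.2 on conventionalized replicate 1 and 2238.2 to 2480.0 on the 3 others (1.21 ± 0.45, limma adjusted p = 0.484). Its other tested probe sets gave -0.85, -0.75 and 0.76. Kif4, a chromosome kinesin, differed by -1.59 ± 1.05 and was not called. The 48 tested genes of mitosis had a median of 0.08, with 28 above 0, which became -0.02 with median centring and without conventionalized replicate 1, and rose to 0.35 without conventionalized replicate 2 and 0.21 without germ-free replicate 2.

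Genes of S phase outside the members leaned upward as the members did. Of 42 tested, 33 lay above 0, where 50.2% of all probe sets did, with a median of 0.30. The groups were apart upward in 14 and downward in 2, where 15.8% and 15.3% of all probe sets were. Germ-free replicate 1 was the lowest array for 23 of the 42, and conventionalized replicate 1 the highest for 27. Without conventionalized replicate 1, 25 of the 42 lay above 0, and 31 to 35 did with any other array left out. The largest differences, none of them called, were those of Gins1, a partner of the MCM helicase (1.47 ± 0.55), Orc1, of the origin recognition complex (-1.40 ± 0.62, with 1.01 at its other probe set), and Cdt1, which loads the helicase (1.06 ± 0.47). Cdt1 read 1985.7, 4456.5, 7105.1 and 5484.0, so both conventionalized arrays were higher. Gins1 read 56.2, 334.0, 518.4 and 419.4, with germ-free replicate 1 far below the other arrays. Its difference ran from 0.45 to 2.50 with 1 array left out. With 1 array left out the median of the 42 stayed between 0.17 and 0.52.

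Inhibitors of division leaned the other way. Of 13 tested, 9 lay below 0 and 4 above, where 50.2% of all probe sets lay above. The inhibitors' median was -0.38, or -0.09 without germ-free replicate 2 and -0.11 with the mean of a gene's probe sets. Tob1, an antiproliferative protein, read 1254.2, 1820.4, 495.2 and 527.2, or -1.51 ± 0.42 in log2, short of the threshold (limma adjusted p = 0.0784). Its conventionalized arrays lay close together and far below both germ-free arrays, and with 1 array left out the difference stayed between -1.77 and -1.24. It was called with the filter at the brightest 25% of probe sets. Ccng2, a cyclin of arrested cells, read 1912.2, 3428.3, 1176.1 and 1689.1 (-0.85 ± 0.42), and Cdkn2d, a Cdk4 and Cdk6 inhibitor, differed by 1.17 ± 0.64. The 21 tested G1 kinases, E2F factors and other regulators had a median of 0.10, with 11 above 0, and -0.03 after quantile normalization. Cdk6, the partner kinase of the D cyclins, read 852.0, 851.6, 1442.7 and 1629.5, with the groups apart (0.82 ± 0.42, limma adjusted p = 0.968). Its second tested probe set gave 0.09, with overlapping groups. Lin9, of the complex that reads CHR elements, differed by -1.38 ± 0.75 and Skp2, which targets Cdk inhibitors for degradation, by 0.69 ± 0.49. Lin9 read 32.4 on conventionalized replicate 2 against 177.3 to 282.6 on the other arrays. With 1 array left out its difference ran from -2.23 to -0.53.

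**Figure D5:**
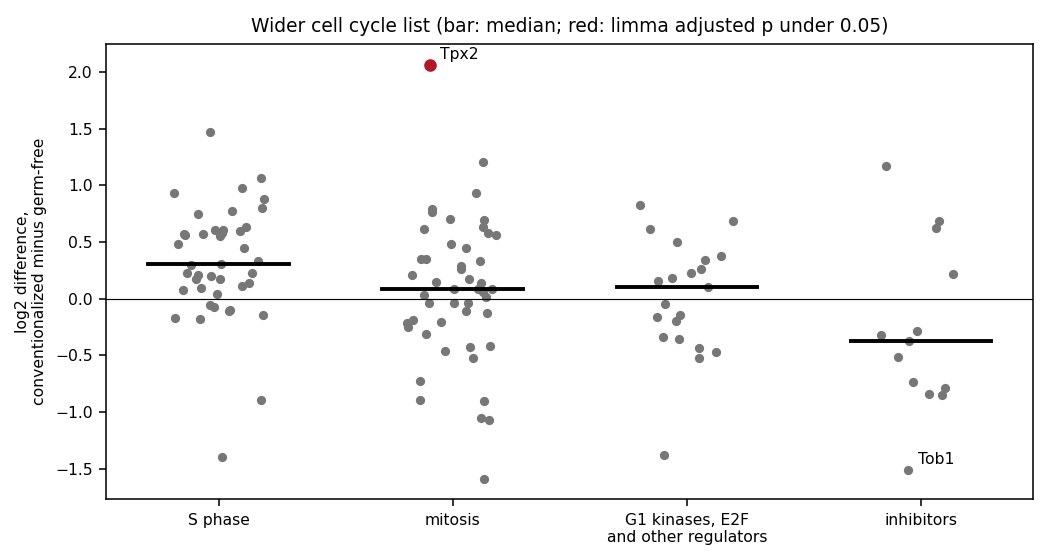
Log2 difference, conventionalized minus germ-free, of 124 further cell cycle genes by class (points), with the class median (bar) and the gene called by limma in red. Medians are 0.30 for S phase, 0.08 for mitosis, 0.10 for G1 kinases, E2F factors and other regulators and -0.38 for inhibitors; Tpx2 at 2.06 was the called gene and Tob1 at -1.51 was not called.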

How the data were processed

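Laser-captured Paneth cell RNA of 2 germ-free and 2 conventionalized arrays was compared. The deposited values are linear intensities that the authors had scaled before deposit, since trimming 2% of probe sets at both ends left a mean of 250.0 on all arrays. Which software made them is not given in the sources used here. Array settings files, a deposited record of other kind, gave the fluidics station and 1 chip lot, scanner and scan day for all arrays. Probe sets were named through the platform annotation of 2016 and a GRCm38.p6 gene table: 34958 of 45101 named 1 gene, 932 several and 9211 none. No build is named for the array values.

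Intensities became log2(intensity + 32), which understates changes of dim probe sets, and folds are on that scale. The 64 control probe sets and those with a mean signal up to 113.9 were left out. limma 3.58.1 (R 4.3.3; lmFit, then eBayes with a variance trend) compared the groups over 22493 probe sets with Benjamini-Hochberg adjustment. The prior degrees of freedom were infinite, so standard errors are those of probe sets of like signal. The fit was tested on simulated data. The members and lists were chosen with earlier results of these data known. All 35 members are named. Signals are printed for called members, for members with groups apart and a log2 difference of at least 1, and for Mki67, Top2a, Cdk1, Pcna, Mcm2, Mcm5, Rrm2, Ccnd1 and Ccnd2. Of the wider list, called genes and the 3 largest differences per class are named. Alternatives were a smaller and a larger pseudocount, other filters, quantile normalization, median centring, the replicate number as a block, no variance trend, the mean of a gene's probe sets and each array left out.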

Additional observations from a re-analysis of the deposited data

How the results depend on the processing

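No cell cycle member was called under any alternative run, and the members' median stayed above 0 in all of them, at 0.10 to 0.50 with 1 array left out and 0.21 with median centring, which moved the median of all probe sets from 0.00 to -0.10. The G2 and M phase median ran from 0.0639 to 0.39 with 1 array left out. Over all probe sets tested the median moved too, from -0.108 to 0.067. Without germ-free replicate 1 it was 0.057, where the G2 and M phase members gave 0.0639 and all members 0.10. The count of 75 called probe sets became 34 with quantile normalization, 22 with median centring, 0 without the variance trend (975 at an unadjusted p under 0.05) and 41 to 213 with 1 array left out (46 without germ-free replicate 1, 41 without germ-free replicate 2, 213 without conventionalized replicate 1 and 47 without conventionalized replicate 2). With the replicate block it was 30, with no member and 1 gene of the wider list called. The aliquot numbers share only a number: deviations of same-numbered arrays correlated at -0.131, and the crossed pairing, added after seeing this, gave 228 called probe sets, 2 in the wider list and 0 members. The wider list's single call, Tpx2, became 2 calls in the brightest 25% of probe sets, 0 with quantile normalization, median centring, no variance trend or the mean of a gene's probe sets, and 0 to 1 with 1 array left out.

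Of the 32 members, 20 kept their sign under every alternative. With 1 array left out, signs changed within -0.38 to 0.38 for Aurkb, -0.30 to 0.30 for Bub1b, -0.68 to 0.54 for Ccne2, -0.14 to 0.74 for Cenpa, -1.20 to 0.27 for Hmgb2, -0.37 to 0.31 for Kif11, -0.50 to 0.0618 for Mcm2, -0.27 to 1.08 for Mcm4, -0.11 to 0.62 for Mki67, -0.0933 to 0.79 for Stmn1 and -0.11 to 0.16 for Ube2c. Median centring gave -0.0838 for Cdc20 and -0.0789 for Ube2c. The mean of a gene's probe sets gave 0.14 for Bub1b, -0.0125 for Cenpa and 0.0817 for Hmgb2. Bub1b was 0.0788 with quantile normalization and 0.001 with the smaller pseudocount, and Aurkb 0.004 with the larger. The causes were not tested. The number of arrays limits the precision, and the dim members Tk1, Kif20a, Tyms and Ccne2 carry the least information.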

Other observations

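Where a member had several tested probe sets, these did not always agree. Of 20 such genes, 12 had all probe sets above 0, 3 had all below 0 and 5 had both signs. For Cenpa the 3 probe sets differed by 0.30, -0.40 and 0.06, and for Hmgb2 the 2 tested differed by -0.47 and 0.31. For Mcm6, both further probe sets differed by more than the brightest, at 1.10 and 1.19, with the groups apart in 2 of its 3 probe sets.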
